A study of Mus musculus with 66 samples.

Results

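Intergenic regions carrying H3K9me3, the trimethylated form of histone H3 lysine 9, that were 5.0 to 7.0 kb long, about the length of a complete retroelement, were examined in the prefrontal cortex (PFC) of adolescent mice. SICER islands, which are stretches of 200 bp windows called against input, were laid over each other, and a run was a stretch of adjoining windows on chromosomes 1 to 19 covered by listed H3K9me3 islands in at least 18 of 22 libraries. Of 39329 runs, 1569 (3.99%) were 5.0 to 7.0 kb long, overlapped no protein-coding gene body in GRCm38, and had the nearest protein-coding gene start 1 to 500 kb away. The runs were chosen by measured island coverage, run length and position, so their H3K9me3 level against input is given below as a description.

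The tissue came from male and female adolescent DBA/2J mice, an inbred strain, that were given water or 4 g/kg ethanol (25% w/v) by gavage intermittently between postnatal days (PND) 29 and 42. PFC was taken 24 h after the last dose. Every library was made from the pooled tissue of 3 mice of like sex and dosing, with 6 male ethanol, 5 male water, 6 female ethanol and 5 female water pools, so a library reports a pool and not an animal. H3K9me3, H3K36me3 and input were sequenced from each pool, and the reads were aligned to a reference genome of another inbred strain, in which elements found only in DBA/2J are missing.

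Retroelements are sequences that copy themselves through RNA, and most copies in the mouse genome are broken. LINE-1 elements carry a second open reading frame that encodes a reverse transcriptase, whose active site holds the residues phenylalanine (or tyrosine), alanine, aspartate and aspartate, while endogenous retroviruses lie between long terminal repeats and begin reverse transcription from a transfer RNA bound at a primer-binding site. H3K9me3, placed at many such elements by the methyltransferase SETDB1 together with the corepressor TRIM28, marks silent heterochromatin. H3K36me3, trimethylated lysine 36, lies over the bodies of genes that are transcribed.

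Within islands on chromosomes 1 to 19, the H3K9me3 libraries held 4.79 to 13.2 M ChIP reads, and the 1569 runs held 0.315 to 0.624 M of these, a median of 191 to 377 reads per run. Female water replicate 2 stood apart, with 33.8% of the runs at least 0.5 covered by islands of a false discovery rate (FDR) of at most 0.01, where the other 21 libraries had 88.2 to 99.7%. Male ethanol replicate 4 had the 13.2 M reads, against 4.79 to 7.85 M in the others. As a check of the tissue, H3K36me3 islands at FDR 0.01 touched all 6 neuronal marker genes in at least 1 library (of 22, Grin1 in 14, Rbfox3 in 11, Syt1 in 7, Slc17a7 in 4, Snap25 in 3 and Gad1 in 1). They touched Mbp in 5 and Mobp in 2 but Mog in 0, Slc1a2 in 4 but Aldoc and Gfap in 0, and Cx3cr1 in 11 but Csf1r in 0. Flt1 was touched in 16 and Cldn5 in 0, and the genes of other organs were touched in 4 (Ins2), 3 (Krt5), 2 (Myh6) and 0 (Alb) libraries, so several defining glial and endothelial markers were absent from the islands, and 3 of the neuronal genes were touched in no more libraries than Ins2. The islands thus gave a weak check of the tissue.

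The runs were read from GRCm38 (the RefSeq sequence of that build) in search of the retroelement they might hold. The 150 bases around the reverse transcriptase active site are shown for the run with the motif that shared sequence with the most other runs, and for 4 runs named by the comparisons below. Each is written 5′ to 3′ along the element, and the capitals mark the 12 bases of the active site. The first lies near Ctnnd2 on the minus strand at chr15:29999184-29999333, the second in the run near Slc22a27 on the minus strand at chr19:7998737-7998886, the third near Ipmk on the minus strand at chr10:71580212-71580361, the fourth near Fut9 on the minus strand at chr4:26025424-26025573 and the fifth near Sult2a4 on the minus strand at chr7:14001303-14001452.
Ctnnd2: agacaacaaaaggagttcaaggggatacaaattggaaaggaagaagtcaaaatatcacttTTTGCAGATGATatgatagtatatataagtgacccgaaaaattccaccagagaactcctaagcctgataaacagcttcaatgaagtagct
Slc22a27: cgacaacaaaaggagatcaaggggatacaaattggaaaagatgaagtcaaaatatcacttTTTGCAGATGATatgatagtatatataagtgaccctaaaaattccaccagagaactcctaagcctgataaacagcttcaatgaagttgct
Ipmk: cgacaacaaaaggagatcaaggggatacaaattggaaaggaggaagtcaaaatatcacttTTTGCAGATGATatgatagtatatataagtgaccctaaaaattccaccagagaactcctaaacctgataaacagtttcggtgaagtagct
Fut9: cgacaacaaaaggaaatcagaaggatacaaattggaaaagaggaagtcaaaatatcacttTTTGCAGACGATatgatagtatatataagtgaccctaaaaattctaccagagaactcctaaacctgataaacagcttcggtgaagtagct
Sult2a4: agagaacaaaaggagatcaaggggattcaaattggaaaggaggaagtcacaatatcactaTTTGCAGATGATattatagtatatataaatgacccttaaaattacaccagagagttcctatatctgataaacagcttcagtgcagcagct

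Against the Ctnnd2 stretch, the Slc22a27 stretch differed at 6 of 150 positions, the Ipmk stretch at 8, the Fut9 stretch at 14 and the Sult2a4 stretch at 19. In the first 4 the active site stood in an open stretch of at least 200 codons, and in the Sult2a4 run it did not. Over the 919 other runs with such a stretch and enough bases on both sides, the median was 9 differences (interquartile range 8 to 10, identity 94%), so these runs on different chromosomes held nearly the same stretch. The most frequent active-site sequence, TTTGCAGATGAT, was used by 900 of 921 runs (97.7%).

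Most of the 1569 runs held the LINE-1 active site. The reference used gives no repeat classes, so LINE-1 content was judged from this site and from alignments among the runs alone. Soft-masked repeats of any class filled a median of 99.8% of a run. The LINE-1 active site stood in a stop-free stretch of at least 200 codons in 921 runs (58.7%) and was missing from such a stretch in 648. It was found in 3 of 1516 flanks (0.198%), which were stretches of the same length at least 10 kb beyond a run and covered in at most 4 libraries, with a median of 28.7% masked. The retroviral form of the site, which has tyrosine and then methionine, valine or isoleucine before both aspartates, was in 0 runs and in 52 flanks (3.43%). These 52 flanks had a median of 96.8% masked, and a median of 39.1% of their 150-base stretches occurred once in the genome. The other 1464 flanks had 28.3% and 100%. Flanks were chosen for low coverage, so these counts do not give the H3K9me3 level of retroviral elements. Searched on both strands without a reading frame, TTTGCAGATGAT was in 1206 runs (76.9%) and in 14 flanks (0.923%), and 305 of the runs that held it had no long stop-free stretch around it. Primer-binding sites were searched in each region with 1 kb on either side. A site was 18 bases that began with TGG and matched a mouse transfer RNA 3′ end, shared by more than 1 gene, with at most 1 mismatch. Sites were found at 6 runs (0.382%) and 46 flanks (3.03%). Direct repeats of at least 100 bp and 80% identity, 3 to 9 kb apart as long terminal repeats would be, were found at 286 runs (18.2%) and 89 flanks (5.87%), and 0 runs had such repeats of 100 to 1000 bp at 95% identity together with a primer-binding site. These shares describe the reference sequence and carry no replicate error.

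**Figure D1:**
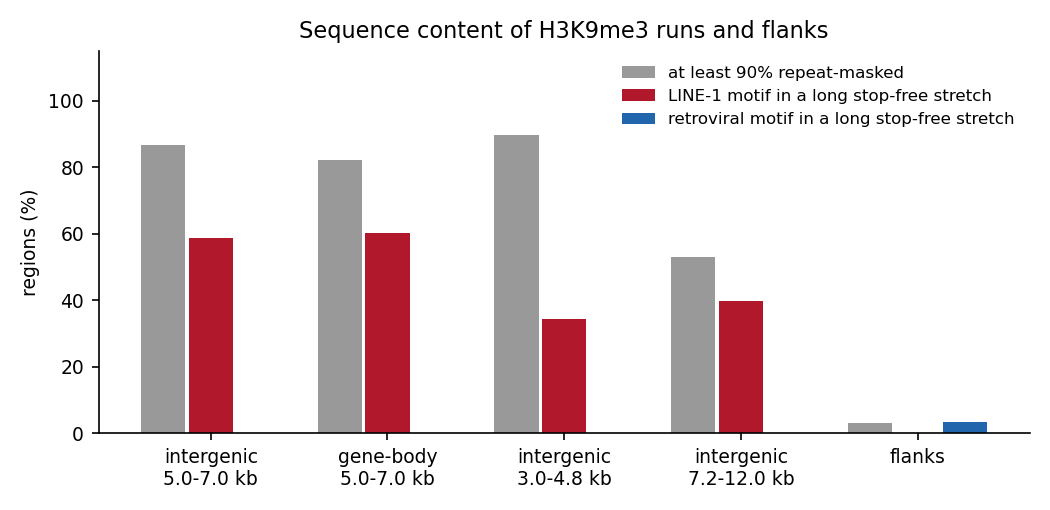
Share of regions (%) that were at least 90% repeat-masked (grey), held the LINE-1 active site in a long stop-free stretch (red) or held the retroviral form (blue), in 5 sets of regions. The LINE-1 site was in 58.7% of the intergenic runs of 5.0 to 7.0 kb and in 0.198% of their flanks, and the retroviral form was in 0 and 3.43%. The flanks were chosen with coverage in at most 4 libraries.

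The LINE-1 content was shared with other H3K9me3 runs. Among 346 runs of the same length in gene bodies, 60.1% had the active site in a long stop-free stretch, close to the 58.7% of the intergenic runs. The share was 34.3% of 7063 shorter intergenic runs (3.0 to 4.8 kb) and 39.7% of 300 longer ones (7.2 to 12 kb). Open stretches were long in the runs: the longest had a median of 454 codons against 143 in the flanks, 691 runs (44%) had one of at least 500 codons, and 165 (10.5%) had one of at least 1000 codons, against 18 flanks (1.19%). No cause of the difference between lengths was tested.

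Length placed the runs on the falling side of a broad plateau. Of the 1569, 1040 (66.3%) were 5.0 to 5.4 kb long and 285 were 6.0 kb or longer, with a median of 5.2 kb. At the threshold itself, 448 intergenic runs were 5.0 kb and 436, left out, were 4.8 kb long, while 30 were 7.0 kb and 22, left out, were 7.2 kb. The nearest gene start inside the rule was 1108 bp away and the farthest 499278 bp, and the closest runs outside it were at 881 and 501881 bp. At least 1 window was covered in exactly 18 libraries in 946 runs, and 8 runs were covered in all 22 libraries throughout.

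**Figure D2:**
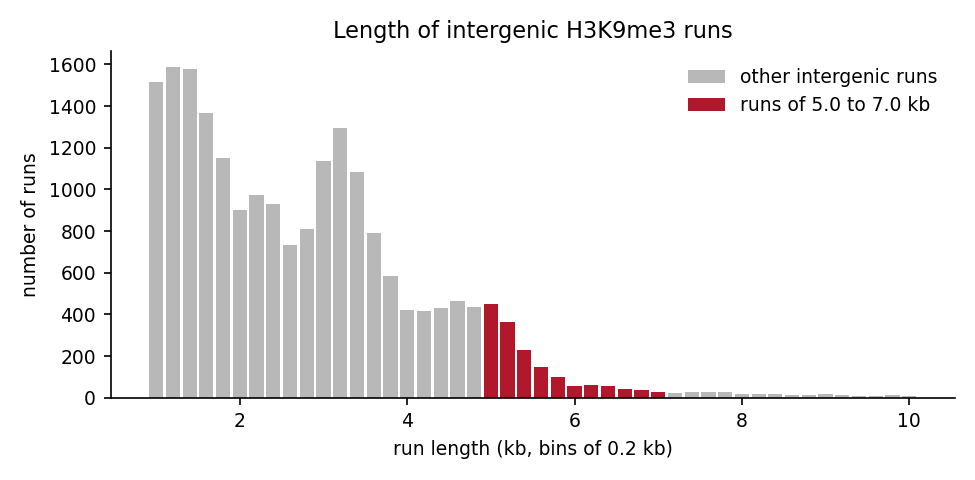
Number of intergenic runs (vertical axis) by length in bins of 0.2 kb (horizontal axis), with the runs of 5.0 to 7.0 kb in red and other lengths in grey. The counts were 436 at 4.8 kb, 448 at 5.0 kb and 30 at 7.0 kb.

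Most runs shared sequence with most others. When every run was aligned to every other, 1538 (98%) were joined in 1 group by alignments of at least 500 bp and 80% identity, and the median run shared such a stretch with 1466 others (93.5%). Pairs were chained into groups, so membership does not mean a stretch shared by all: 1463 runs of the large group (93.2% of the 1569) had at least 1000 partners, and 34 had under 10, among them the runs near Gm15319 with 4 each. The remaining 31 runs fell into 3 small groups or stood alone. At 90% identity over 1000 bp the large group still held 1411 runs (89.9%). The 2 next largest groups had 3 runs each and held no LINE-1 active site in a long stop-free stretch. One lay on chromosome 5, 2.06 to 3.27 kb from the starts of Gm10354, Gm21149 and Speer4d, of which Speer4d belongs to a family expressed in the testis. The other lay on chromosome 13 near the gene models Gm10139 and Gm10772. To show their contrast with the stretches above, 120 bases of the plus strand are given from the middle of the longest alignment of each group, chr5:14984467-14984586 (4675 bp aligned to the Gm21149 run at 97.1% identity) and chr13:65687837-65687956 (5003 bp aligned at 98.8% to another run near Gm10139), with no part in capitals.
Gm10354: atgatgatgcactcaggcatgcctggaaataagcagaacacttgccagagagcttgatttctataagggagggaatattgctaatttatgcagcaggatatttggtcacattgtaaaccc
Gm10139: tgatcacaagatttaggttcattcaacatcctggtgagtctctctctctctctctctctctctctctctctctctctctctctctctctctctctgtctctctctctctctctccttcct

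The 31 runs outside the large group had a higher ratio to input (median 2.05) than the 1538 in it (1.502), and none of them held the LINE-1 active site in a long stop-free stretch. These are descriptions, since H3K9me3 chose the runs.

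The active site lay at nearly the same place in each run. Read along the element, it was a median of 3.29 kb from the 5′ edge of the run (interquartile range 3.22 to 3.37 kb, n = 921), and 1.92 kb from the 3′ edge (1.77 to 2.22 kb). The 5′ distance thus varied over 0.151 kb between quartiles and the 3′ distance over 0.451 kb. The elements pointed either way, with 473 on the plus and 448 on the minus strand. Aligned on the active site, listed H3K9me3 islands covered a mean of 21 libraries 3 kb upstream, 21.3 at the site, 16 at 2 kb and 6.58 at 3 kb downstream, and 4.35 at 4 kb upstream, where the rule sets the high values and not their position along the element. H3K36me3 islands, which the rule did not use, covered 4.34 libraries 3 kb upstream, 4.67 at 2 kb upstream, 3.17 at the site, 1.497 at 2 kb downstream and 0.559 at 4 kb downstream, against 0.57 at 10 kb upstream. Islands of H3K36me3 were therefore densest over the 5′ side of the element and fell along it. The paper states that only reads with 1 location were kept for H3K9me3. That filter was not checked here, and how mappable each window is was not tested.

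**Figure D3:**
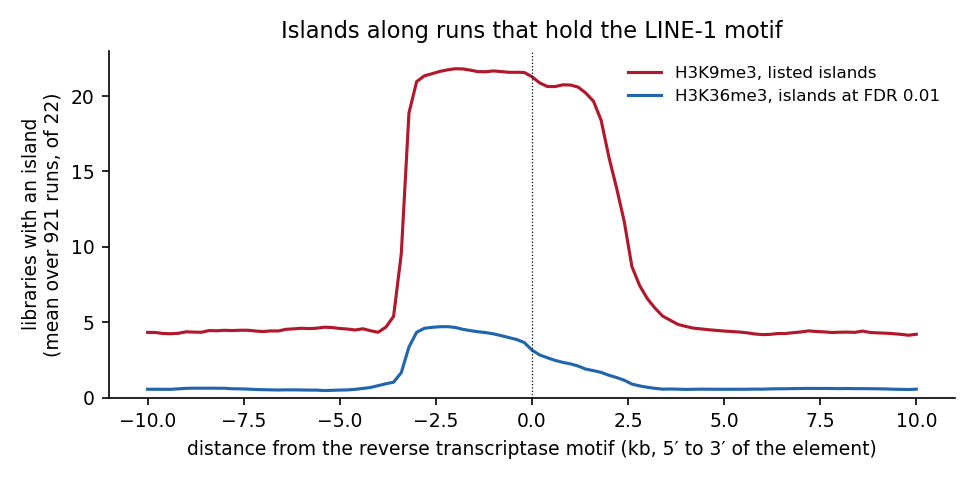
Mean number of libraries, of 22, with an island in each 200 bp window (vertical axis) by distance from the LINE-1 active site in kb along the element (horizontal axis), over the 921 runs that hold it. Listed H3K9me3 islands (red) rise from 4.35 libraries at 4 kb upstream to 21 at 3 kb upstream, and H3K36me3 islands at FDR 0.01 (blue) rise from 0.809 to 4.34 between these points and fall to 1.497 at 2 kb downstream.

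Enrichment of H3K9me3 over input was modest at these runs. The library-scaled ratio of ChIP to input reads, taken as the median over the 1569 runs, was 1.47, 1.54 and 1.75 (lowest, median, highest) in the male ethanol libraries and 1.66, 1.46, 1.61, 1.44 and 1.47 in the 5 male water libraries. It was 1.48, 1.56 and 1.64 (lowest, median, highest) in the female ethanol libraries and 1.52, 1.14, 1.61, 1.48 and 1.64 in the female water libraries, the 1.14 being female water replicate 2. The groups overlapped, with means of 1.56 ± 0.107 (SD, n = 6), 1.53 ± 0.100 (n = 5), 1.56 ± 0.0648 (n = 6) and 1.48 ± 0.197 (n = 5). Over all 39329 runs the median per library was 1.15 to 1.70, and it was higher at the 1569 runs in 19 of 22 libraries. Single runs differed more than libraries did, with a median over the libraries from 0.433 to 2.55 (interquartile range 1.43 to 1.71).

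The ratio was highest in the runs whose sequence was mostly unique. The share of 150-base stretches, the read length, that occur once in the genome had a median of 69% per run, against 100% in the flanks. In the 152 runs with a share of at most 25%, the median ratio was 1.52, and 81.6% held the LINE-1 active site in a long stop-free stretch. The ratio was 1.45, 1.46 and 1.53 in the classes of 25 to 50%, 50 to 75% and 75 to 90%, so it did not rise steadily. In the 468 runs with a share over 90% the ratio was 1.73, and 27.4% held the active site. Input reads were 24.0 per kb in the first class, 26.2 and 26.6 per kb in the classes of 25 to 50% and 50 to 75%, and 21.7 per kb in the last. Across the 1569 runs, Spearman's rho of the ratio was 0.34 with the unique share, -0.44 with the longest open stretch and -0.31 with the distance to a gene start, all across regions that share libraries and sequence.

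The lowest ratios belonged to runs with deep input. The run near Pdia4, which encodes a protein disulfide isomerase of the endoplasmic reticulum, had a ratio of 0.433 (0.341 to 0.618 over 22 libraries) and 136 input reads per kb at chr6:47743201-47749000, where 17.6% of 150-base stretches were unique and GC was 55.6%. Its ratio was under 1 in every library, although islands were listed there. A run near Gm853 (chr4:130202201-130209000) had 0.805 and 66.4 input reads per kb, and a run near Gm15319 (chr8:20279801-20286400) had 0.952 and 94.9 input reads per kb. The highest ratios, 2.49, 2.51 and 2.55, were of runs on chromosome 13 near Gm10139 (chr13:65709201-65714200 and chr13:65798601-65803600) and Gm10772 (chr13:66240001-66245400), with 28.8, 21.2 and 24.1 input reads per kb. These 3 held no LINE-1 active site in a long stop-free stretch and were 20.5 to 44.8% repeat-masked. The run at chr13:65709201-65714200 and another near Gm10139 (chr13:65685401-65690400), 18.8 kb away, had equal CPM in several libraries, such as male ethanol replicate 6 (88.0 CPM, male fit). Reads of an island are apportioned by length, so such a ratio can average a wider island and is not a separate measure of each run.

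H3K36me3, which the rule did not use, lay over some of the runs in every library. At FDR 0.01 its islands covered at least 0.5 of a run for 4.21, 28.9 and 58.2% (lowest, median, highest) of the runs in male ethanol libraries and for 15.6, 11, 9.24, 4.46 and 7.84% in the male water libraries. The shares were 6.18, 12.7 and 29.9% in female ethanol libraries and 30.1, 6.95, 24.1, 26.0 and 15.6% in female water libraries. Means were 27.2 ± 19.9% (SD, n = 6) against 9.62 ± 4.10% (n = 5) in males and 14.4 ± 8.66% (n = 6) against 20.5 ± 9.25% (n = 5) in females, and the groups overlapped in both sexes. The male ethanol libraries spread from below the water libraries to far above them. The share over all 39329 runs moved in the same way, with 20.8 ± 13.2% in male ethanol and 9.69 ± 3.47% in male water libraries. In females it was 12.8 ± 4.34% in ethanol and 18.2 ± 5.86% in water libraries. The share of H3K36me3 island length in gene bodies was 30.5 ± 13.7% in male ethanol and 51.7 ± 6.85% in male water libraries, and 40.5 ± 9.995% and 47.2 ± 15.3% in female ethanol and water libraries. The part of this library difference in the H3K36me3 share was not tested.

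**Figure D4:**
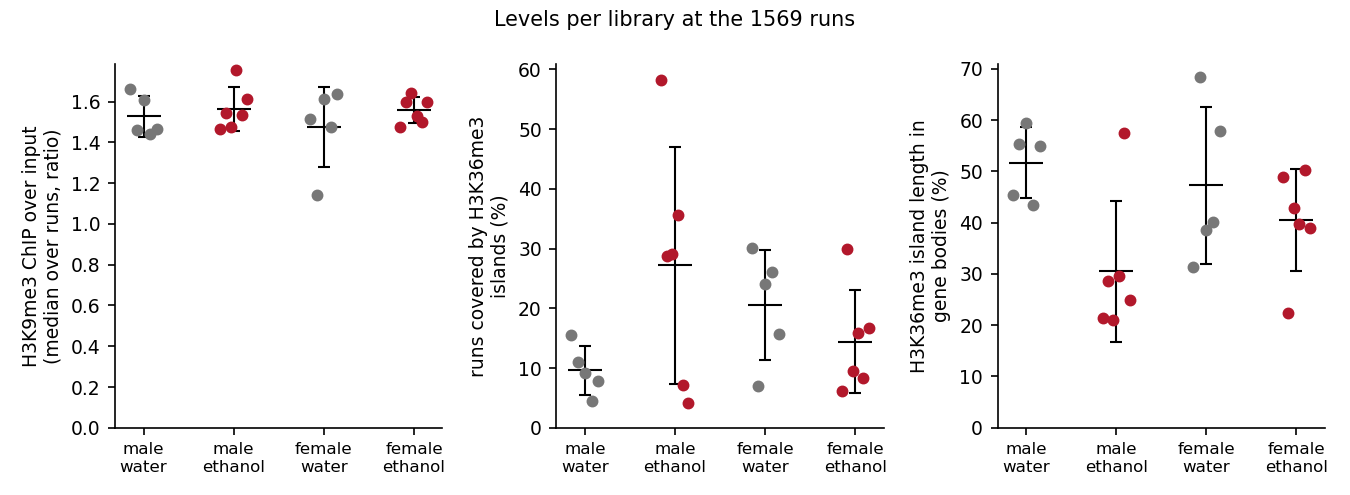
Values per library (points, ethanol in red and water in grey) with the group mean and SD (black) at the 1569 runs, for the median ratio of H3K9me3 ChIP to input reads, the runs at least 0.5 covered by H3K36me3 islands at FDR 0.01 (%) and the H3K36me3 island length in gene bodies (%). Male ethanol libraries span 4.21 to 58.2% for H3K36me3 coverage and male water libraries 4.46 to 15.6%.

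Few runs were covered by H3K36me3 islands at FDR 0.01 in most libraries. Of the 1569, 101 were at least 0.5 covered in no library, 1087 in 1 to 5 libraries, 322 in 6 to 10 and 59 (3.76%) in at least 11, against 5.24% of all runs. The 3 runs covered in the most libraries, 21 of 22 each, were those near Gm15319 at chr8:20407401-20413600 and chr8:20279801-20286400 and the run near Gm21863 at chr12:20266601-20273400. Repeats masked 24.8, 25.8 and 27.1% of them, and none held the LINE-1 active site in a long stop-free stretch. Their ratios of H3K9me3 to input were 0.974, 0.952 and 2.23.

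The runs were spread over all 19 chromosomes but not evenly. Chromosome 7 held 206, or 14.2 per 10 Mb, followed by chromosome 13 with 10.1 and chromosome 4 with 9.46 per 10 Mb, and chromosome 14 held 3.28 per 10 Mb. The share with the active site in a long stop-free stretch was 38.8% on chromosome 7 and 82.9% on chromosome 14. Another of the runs lay within 100 kb of 789 (50.3%). The nearest gene start was a median of 71.7 kb away (interquartile range 22.4 to 206 kb), and 1095 genes served as the nearest. Annotated pseudogenes or non-coding genes overlapped 198 runs (12.6%), of which 88 overlapped a lincRNA and 36 an unprocessed pseudogene.

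Genes of large clustered families were often the nearest. Olfactory receptor genes were nearest to 127 runs (8.09%), against 4.03% of all H3K9me3 runs. All runs include those in gene bodies, which the rule left out here, and 64.9% of all runs met its limits of position. Shares over intergenic runs alone were not taken. Vomeronasal receptor genes were nearest to 46 runs for type 1 (2.93% against 1.75%) and 58 runs for type 2 (3.70% against 2.60%), and zinc-finger genes to 50 (3.19% against 2.92%). Protocadherin and cadherin genes, which serve cell adhesion in neurons, were nearest to 20 (1.27% against 2.70%), potassium channel genes to 12 (0.765% against 1.10%), glutamate receptor genes to 9 (0.574% against 0.730%) and ephrin receptor genes to 6 (0.382% against 0.381%). The writers and readers of H3K9me3, such as Setdb1 and Trim28, were nearest to 0 runs, and to 30 of all 39329 runs (0.0763%), too few to read the 0. Gm5591 and Pglyrp3, with 10 runs each, were the nearest genes most often. The runs nearest to a start lay 1.11 kb from Olfr702 (chr7:106835001-106840000), 1.13 kb from Vmn1r169 (chr7:23567401-23574400) and 1.18 kb from Vmn2r32 (chr7:7481201-7488200), with ratios of 1.66, 2.00 and 2.09. The farthest, near Igfbp3 (chr11:7713201-7720200), Tfap2b (chr1:19707601-19712800) and Gramd3 (chr18:55897401-55902400), had ratios of 1.38, 1.56 and 1.40 and all held the LINE-1 active site, which the 3 nearest did not have in a long stop-free stretch.

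Whether adolescent binge ethanol changed H3K9me3 at these runs was asked within each sex. A run was tested where islands covered at least 0.5 of its length in all libraries compared, so runs gained or lost outright were left out, and counts are given as CPM, the reads of a run scaled to a common total, of the reads in tested runs. In males, 57 of 1556 tested runs (3.66%) reached an unadjusted p of 0.05 in edgeR's quasi-likelihood test, against 3.57% of all 26015 tested runs, so the share was near the background. Of these, 30 (1.93%, against 1.75% of all runs) were higher and 27 (1.74%, against 1.83%) lower with ethanol. This split depended on the scaling: by library totals without TMM factors, 42 were higher (2.70%, against 2.25% of all runs) and 19 lower (1.22%, against 1.31%). None passed Benjamini-Hochberg adjustment over all runs in edgeR (0 of 1556) or in DESeq2, which had 34 (2.19%, against 2.08% of all runs) at an unadjusted p of 0.05. After division by input, 38 (2.44%, against 5.38% of all runs) were at that threshold in limma, a share below the background. The median log2 fold change in edgeR was 0.0036 over the 1556 runs and -0.00076 over all, and none of the 1556 reached a log2 fold change of 1 in size.

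The 3 male runs of smallest p lay near Fut9, Sult2a4 and Zfp990, and in 2 of them the groups did not overlap. The run near Fut9, a fucosyltransferase that makes the Lewis x structure in brain (chr4:26023201-26028600, 223 kb away), had 49.1, 54.9 and 59 CPM (lowest, median, highest) in ethanol and 70.1, 63.3, 62.1, 61.1 and 68.0 CPM in water libraries. All ethanol libraries were below all water libraries. The log2 fold change, given here and below with its SE, was -0.26 ± 0.0649 (adjusted p = 1.00 by edgeR). This run held the active site in an open stretch of 1110 codons. The run near Sult2a4, a sulfotransferase (chr7:14000001-14006200, 10.4 kb away), had 56.3, 58.9 and 62.2 CPM in ethanol and 51.1, 50.8, 54.2, 51.8 and 46.8 CPM in water libraries. All ethanol libraries were above all water libraries, with a log2 fold change of 0.21 ± 0.0597 (edgeR adjusted p = 1.00). The run near Zfp990, a zinc-finger gene (chr4:145470601-145476000, 34.8 kb away), had 57.2, 76.9 and 88.0 CPM in ethanol and 51.1, 67.1, 60.2, 57.1 and 52.4 CPM in water libraries, which overlapped (log2 fold change 0.36 ± 0.104, edgeR adjusted p = 1.00). Groups without overlap were found at 8 of the 1556 runs (0.514%), against 0.354% of all tested runs. After division by the input reads of the same run, the 3 log2 fold changes were -0.12, 0.094 and 0.11, and none reached an unadjusted p of 0.05 in limma.

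In females, 75 of 1500 tested runs (5%) were at an unadjusted p of 0.05 in edgeR, against 4.74% of all 20182 tested runs. Of these, 44 (2.93%, against 2.58% of all runs) were higher and 31 (2.07%, against 2.16%) lower with ethanol. By library totals without TMM factors, 62 were higher (4.13%, against 3.15% of all runs) and 20 lower (1.33%, against 1.68%). None passed adjustment in edgeR, and 1 did in DESeq2, the only one of all 20182 runs (0.00495%). DESeq2 had 54 (3.6%, against 3.01% of all runs) at an unadjusted p of 0.05. The run that passed in DESeq2 lay near the gene model Gm15319 at chr8:20407401-20413600. It had 160, 170 and 239 CPM (lowest, median, highest) in ethanol and 264, 324, 251, 359 and 253 CPM in water libraries, so every ethanol library was below every water library. Its log2 fold change was -0.68 ± 0.117 (edgeR adjusted p = 0.248), and -0.44 after division by input, which still reached an unadjusted p of 0.05 in limma. In males the same run had 144, 203 and 301 CPM (lowest, median, highest) in ethanol and 133, 288, 273, 249 and 150 CPM in water libraries. Both male groups thus held low and high libraries, and the log2 fold change was -0.047 ± 0.218 (edgeR adjusted p = 1.00). The test of the difference between the sexes gave -0.64 on the log2 scale (female minus male), at an unadjusted p under 0.05 in edgeR and DESeq2 but not after adjustment (edgeR adjusted p = 0.999). This run held no LINE-1 active site in a long stop-free stretch and shared sequence with 4 other runs. It was 24.8% masked, its 30-base stretches had a median of 6 copies, it had 109 input reads per kb, and its H3K9me3 ratio to input was 0.974.

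The other 2 female runs of smallest p had more reads with ethanol and did not pass adjustment. The run near Vmn2r44, a vomeronasal receptor gene (chr7:8385601-8391600, 2.27 kb away), had 69.6, 78.6 and 87.1 CPM in ethanol and 66.6, 57.8, 71.5, 64.0 and 53.8 CPM in water libraries, which overlapped by 1 library on each side. Its log2 fold change was 0.33 ± 0.0816 (edgeR adjusted p = 0.966), and after division by input it was 0.23 and did not reach an unadjusted p of 0.05 in limma. The run near Ppp4r3a, a regulatory subunit of protein phosphatase 4 (chr12:101236401-101241600, 153 kb away), had 48.7, 58.2 and 64.5 CPM in ethanol and 35.9, 43.1, 54.1, 44.8 and 43.0 CPM in water libraries, which also overlapped. Its log2 fold change was 0.38 ± 0.0987 (edgeR adjusted p = 0.966). Its input reads, counted over the same islands, moved alike, with a log2 fold change of 0.33 at an unadjusted p under 0.05. After division by input the change was 0.052 and did not reach it. Groups without overlap were found at 6 of 1500 runs (0.4%), against 0.456% of all tested runs.

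**Figure D5:**
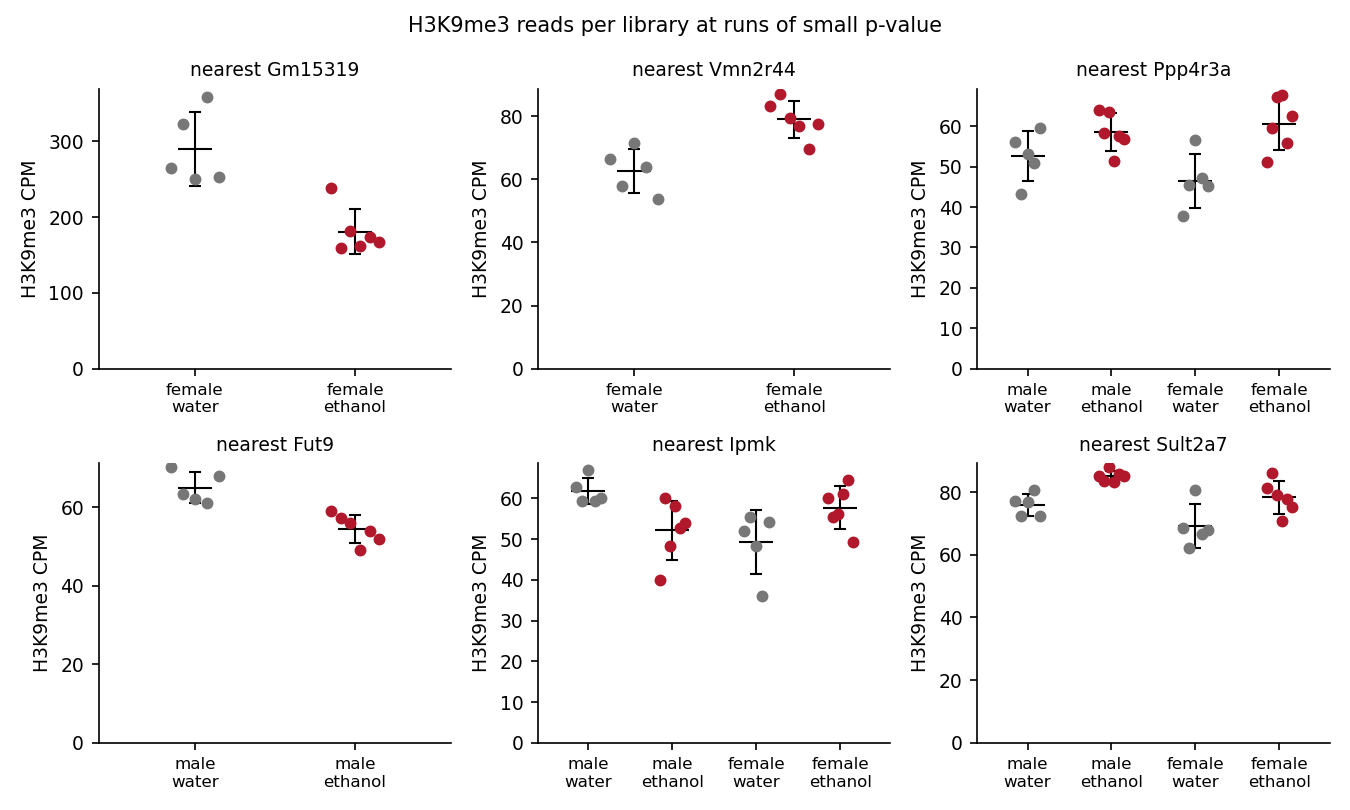
H3K9me3 reads per library (points, CPM of reads in tested runs, ethanol in red and water in grey) with group mean and SD (black) at 6 runs of small p-value, titled by the nearest gene. At the Gm15319 run the female ethanol libraries lie between 160 and 239 CPM and the female water libraries between 251 and 359 CPM.

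Both sexes shared a few runs at the unadjusted threshold of edgeR. Of 1488 runs tested in both, 52 were at the threshold in males and 75 in females, and 5 were in both (9.62% of the male and 6.67% of the female runs). Over all 17678 runs, 41 were in both, or 5.93% of the 691 male and 4.77% of the 860 female runs, and 21 of the 41 had the same direction. Of the 5, 4 had the same direction, higher with ethanol, and these lay near Vmn2r43, Vmn1r74, Sult2a7 and Pcdha1, while the run near Ipmk had opposite directions. In the fit of both sexes together, 78 of 1488 runs (5.24%) were at an unadjusted p of 0.05 in edgeR, against 4.54% of all 17678 runs, with 42 higher (2.82%, against 2.25%) and 36 lower (2.42%, against 2.29%). By library totals without TMM factors, 64 were higher (4.30%, against 3.37%) and 17 lower (1.14%, against 1.41%). None passed adjustment in edgeR or DESeq2, which had 81 (5.44%, against 4.59% of all runs) at an unadjusted p of 0.05. The smallest p-values were of the run near Ppp4r3a (log2 fold change 0.26 ± 0.0684, edgeR adjusted p = 0.997) and of the run near Sult2a7, a sulfotransferase (chr7:14500801-14507800). The Sult2a7 run had 83.3, 85.2 and 87.9 CPM (lowest, median, highest) in male ethanol and 77.2, 72.5, 76.9, 80.6 and 72.4 CPM in male water libraries. In females it had 70.7, 78.4 and 86.0 CPM in ethanol and 68.7, 62.1, 80.6, 66.6 and 67.9 CPM in water libraries. The male groups did not overlap and the female groups did, with a log2 fold change of 0.17 ± 0.0451 over both (edgeR adjusted p = 0.997). Input reads of this run, counted over the same islands, differed by 0.18 on the log2 scale, at an unadjusted p under 0.05. After division by input the change was -0.013 and did not reach it.

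The response to ethanol differed between the sexes at no run after adjustment. At an unadjusted p of 0.05, 67 of 1488 runs (4.50%) had an interaction of treatment and sex in edgeR, against 4.51% of all runs, and DESeq2 had 68 (4.57%, against 4.16% of all runs) with 0 adjusted. The run near Ipmk, a kinase of inositol polyphosphates (chr10:71578601-71583600, 231 kb away), had 39.9, 53.4 and 60.1 CPM in male ethanol and 62.9, 59.4, 67.1, 59.4 and 60.2 CPM in male water libraries. It had 49.4, 58.1 and 64.4 CPM in female ethanol and 51.9, 55.5, 48.4, 36 and 54.2 CPM in female water libraries. It was thus lower with ethanol in males and higher in females, with an interaction of 0.46 ± 0.136 (edgeR adjusted p = 0.999), and all groups of a sex overlapped. After division by input the interaction was 0.23 and did not reach an unadjusted p of 0.05 in limma. The run near Mup18, a major urinary protein gene (chr4:61704601-61709600, 30.5 kb away), went the other way, with 71.6 ± 5.48 against 64.1 ± 3.28 CPM in males (SD, n = 6 and 5, ethanol against water) and 62.2 ± 7.76 against 69.7 ± 5.62 CPM in females (interaction -0.33 ± 0.111, edgeR adjusted p = 0.999). Its input reads alone gave an interaction of -0.23, and after division by input the value was -0.090 and did not reach an unadjusted p of 0.05.

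Between the sexes, the runs leaned to one side. At an unadjusted p of 0.05 in edgeR, 91 of 1488 runs (6.12%) differed, against 5.56% of all runs, but 75 were lower in females (5.04%, against 2.81% of all runs) and 16 were higher (1.08%, against 2.75%). By library totals without TMM factors, 58 were lower (3.90%, against 2.08%) and 23 higher (1.55%, against 3.34%). None passed adjustment in edgeR or DESeq2, which had 111 (7.46%, against 5.63% of all runs) at an unadjusted p of 0.05 and passed 1 of all 17678 runs (0.00566%) after adjustment, outside these 1488. Of 596 runs without the active site in a long stop-free stretch, 57 (9.56%) were at the threshold, 55 of them lower in females, and of 892 with it, 34 (3.81%), 14 of them higher. Of 141 runs with a unique share of at most 25%, 14 (9.93%) were at the threshold, 11 of them higher, and of 423 with a share over 90%, 45 (10.6%) were, 2 of them higher. The difference between these classes was not tested, and shares of all runs in such classes were not taken. The ethanol comparison in females split alike, with 43 of 603 (7.13%) at the threshold without the active site and 32 of 897 (3.57%) with it. In males these were 22 of 640 (3.44%) and 35 of 916 (3.82%). The lean between the sexes stood also in the input reads. There, 96 of 1488 runs (6.45%, against 4.98% of all runs) were at the threshold, 77 (5.17%, against 2.6%) lower in females and 19 (1.28%, against 2.38%) higher. Input reads were counted in the same listed H3K9me3 islands, so they share island coverage with the ChIP reads and are no independent measure. After division by input, 43 (2.89%, against 5.28% of all runs) were at the threshold in limma. Of these, 23 (1.55%, against 2.47% of all runs) were higher in females and 20 (1.34%, against 2.81%) lower. Without the 2 libraries that stood apart, 84 of 1534 (5.48%, against 5.24% of all runs) were at the threshold, 22 of them higher (1.43%, against 2.58%).

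The 2 runs of smallest p for sex lay near Zscan4b and Slc22a27. The run near Zscan4b, a zinc-finger gene of the early embryo (chr7:10865001-10871400, 33.7 kb away), had 67.1, 77.5 and 82.7 CPM (lowest, median, highest, n = 11) in males and 40.4, 62.1 and 80.03 CPM (n = 11) in females, and the ranges overlapped. Its log2 difference, female against male, was -0.28 ± 0.0744 (edgeR adjusted p = 0.824) and -0.29 in the input reads, both at an unadjusted p under 0.05 in edgeR. After division by input it was 0.0074 and did not reach that threshold in limma. The run near Slc22a27, a transporter of organic anions (chr19:7996001-8002200, 30.0 kb away), had 77.5, 91.9 and 102 CPM in males and 63.0, 82.1 and 89.5 CPM in females. Its log2 difference was -0.17 ± 0.0492 (edgeR adjusted p = 0.824), -0.13 in the input reads and -0.033 after division by input, and neither of the latter reached an unadjusted p of 0.05.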

How the data were processed

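ChIP-seq of H3K9me3 and H3K36me3 and input libraries was analysed in 22 pools of PFC tissue, each of 3 mice, grouped by the sample titles. For H3K9me3, the authors trimmed reads with cutadapt, aligned 150 bp single-end reads to GRCm38 with Bowtie2 2.4.1, discarded blacklisted regions, kept reads with 1 location, and called islands with SICER (window 200 bp, gap 400 bp) against input. The H3K36me3 lists had a gap of 600 bp, and for that mark the read filters were not stated. Replicate pools were not pooled further, and the DNA of 8 precipitations was combined for each library. The deposited read counts per island were raw counts of ChIP and input reads. The deposited p-values and q-values compare ChIP with input, and the q-value, adjusted over a list, is the FDR used here. The deposited fold is the ratio of ChIP to input, scaled by 1 constant per library, which was recovered and applied to the reads of a run. Lists were not filtered on FDR, and reads outside islands were not used here.

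Runs, gene distances and gene overlaps were taken from GRCm38 with the GENCODE annotation of that build. ChIP and input reads of an island were apportioned to a run by the share of the island inside it and rounded. Both counts came from the same listed islands, so both fall where the islands of a library cover less of a run. Runs at least 0.5 covered in all libraries compared were filtered with filterByExpr, scaled by TMM and tested with edgeR 4.0.16 (quasi-likelihood, Benjamini-Hochberg adjustment over all tested runs), with treatment in each sex, treatment and sex, their interaction, or sex. Alternatives used DESeq2 1.42.0 and limma 3.58.1 in R 4.3.3, the latter on log2 ratios of ChIP to input reads with a pseudocount of 1. The edgeR script was tested on simulated counts. At most 5.50% of runs had equal counts in any 2 libraries, so every library was kept as its own replicate. Equal replicate numbers did not pair the libraries. Each library is a pool of 3 mice, so p-values measure the spread between pools.

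Copies of 30 and 150 base stretches were counted every 25 bases over the genome, open stretches in 6 frames, and alignments between runs with BLAST 2.17.0. Python 3.11.15 was used with pandas 2.3.3, numpy 2.4.6, matplotlib 3.10.9 and scipy 1.17.1. Named runs were the 3 (each sex) or 2 (both sexes, interaction, sex) of smallest p, the 3 highest and lowest in ratio, the 3 nearest and farthest from a gene start, the 3 with H3K36me3 in the most libraries and the member with the most partners in each of the 3 largest sequence groups; the Ctnnd2 stretch and the 5 runs shared by both sexes were named after their values were seen. The runs, lists and tests were chosen with earlier results of these data known. A marker gene of the tissue check is not reported here.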

Additional observations from a re-analysis of the deposited data

Results flagged for a closer look

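In groups of 5 or 6 libraries, 60 groups of values were examined for a library far from the others, and 7 had one (11.7%), where chance gives about 1 in 20. The gap to the nearest library, as a share of the group's range, was 0.685 for the ChIP reads in islands of male ethanol replicate 4 (13.2 M against 5.399 to 7.85 M) and 0.642 for those of female ethanol replicate 1 (7.42 M against 6.20 to 6.64 M). It was 0.840 for the runs covered at FDR 0.01 in female water replicate 2 (33.8% against 88.2 to 98.6%) and 0.764 for the H3K36me3 island length in gene bodies of male ethanol replicate 5 (57.5% against 20.98 to 29.6%). The share of island ChIP reads at the 1569 runs was low in male water replicate 1 (5.16% against 5.36 to 5.41%, gap 0.809).

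At the Gm15319 run, female ethanol replicate 1 had 239 CPM where the other female ethanol libraries had 160 to 182 (gap 0.721), and it lay nearest to the water libraries. At the Slc22a27 run, male ethanol replicate 5 had 102 CPM against 87.6 to 92.5 (gap 0.663). The response to ethanol differed between males and females by 0.46 on the log2 scale at the Ipmk run and by -0.33 at the Mup18 run (female minus male, edgeR interaction test), each at an unadjusted p under 0.05, and neither passed adjustment over all runs (adjusted p = 0.999 for both). After division by input the values were 0.23 and -0.090, and neither reached an unadjusted p of 0.05.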

How the results depend on the processing

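Counts of runs at an unadjusted p of 0.05 moved where a setting changed the number of runs tested. With islands over 0.9 of a run they were 11 of 377 in males (2.92%, against 3.69% of all runs at that setting), 7 of 161 in females (4.35% against 4.89%), 8 of 68 over both sexes (11.8% against 4.89%), 3 for the interaction (4.41% against 4.53%) and 1 for sex (1.47% against 4.65%). With islands at FDR 0.01 they were 17 of 462 in females (3.68% against 3.93%), 21 of 421 over both sexes (4.988% against 4.19%), 20 for the interaction (4.75% against 4.12%) and 28 for sex (6.65% against 5.24%). In runs of 4.0 to 8.0 kb they were 139, 191, 179, 168 and 215 in the same order of comparisons (3.67, 5.32, 5.06, 4.75 and 6.08%, against 3.57, 4.74, 4.54, 4.51 and 5.56% of all runs), and in the 107 runs covered in all 22 files they were 0, 5, 4, 4 and 6 (0, 4.67, 3.74, 3.74 and 5.61%, against 2.20, 2.35, 2.33, 2.07 and 2.66% of all runs so covered). DESeq2 gave 34 in males. Divided by input, males had 38 (2.44%, against 5.38% of all runs), females 42 (2.8% against 4.895%) and sex 43 (2.89% against 5.28%). There were 69 over both sexes (4.64% against 5.78%) and 52 for the interaction (3.49% against 4.67%), and the cause was not tested. The Sult2a7 change over both sexes turned to -0.013 after division by input and the Zscan4b sex difference to 0.0074. Of the other results named by p, that of Gm15319 in females alone kept an unadjusted p of at most 0.05 after division by input. Leaving out each library gave 51 to 68 in males, 62 to 88 in females, 66 to 86 over both sexes, 57 to 80 for the interaction and 79 to 116 for sex. As shares these were 3.28 to 4.35%, 4.13 to 5.87%, 4.44 to 5.78%, 3.83 to 5.38% and 5.31 to 7.73%, against 3.44 to 4.10%, 4.28 to 5.66%, 4.28 to 5.37%, 4.12 to 5.04% and 5.23 to 6.17% of all runs in the same fits. A rule of at least 11 files gave 5179 runs, all 22 files 107 and lengths of 4.0 to 8.0 kb 3862. With all 22 files the ratio to input was 1.89 and the H3K36me3 share 42.1%. Sequence groups numbered 128 at 90% identity over 1000 bp. Replicate numbers are shared by the groups but did not pair the pools, and with the replicate number as a block the counts were 53 in males, 72 in females, 62 over both sexes and 64 for the interaction (3.41, 4.8, 4.17 and 4.301%, against 3.18, 4.37, 4.28 and 4.395% of all runs).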
